A study of Mus musculus with 4 samples.

Results

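P-I cells are the CD115-high, Ly6C-positive CD11b+ splenocytes that the study calls classical monocytes. They were chosen here as the cells that the deposited cell table marks with subset I, a gate on antibody-tag counts, and 326 of 11631 cells carried that mark. Of these, 139 came from the steady-state library and 187 from the library of mice conditioned with GM-CSF by 3 once-daily injections. The cells were sorted for CD11b from mouse spleen, and RNA and 5 antibody tags (CD115, CD11c, Ly6C, MHCII and CD301b) were read in the same cells by CITE-seq, which attaches a sequence barcode to each antibody. The labels name no genotype, age or number of animals for either library. The methods list C57BL/6 among the strains used, without naming that of these libraries, and an age of 8 to 12 weeks for all mice. They give subcutaneous injection and collection 24 hours after the last dose without stating the mice per library. Each condition is 1 library, so no test between conditions was possible, and all intervals below are exact 95% intervals for counting error only.

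Classical monocytes leave the bone marrow through CCR2, carry Ly6C at the surface and depend on CD115, the receptor for M-CSF encoded by Csf1r. They give rise to Ly6C-low non-classical monocytes, which depend on the nuclear receptor Nr4a1, and in inflamed tissue to cells with macrophage or dendritic cell features. GM-CSF binds a receptor made of Csf2ra and Csf2rb and signals through JAK2 and STAT5, whose feedback inhibitors include Cish and the Socs genes. It is used in culture to turn monocytes into cells rich in MHC class II and CD11c.

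The P-I cells held 1092673 UMIs, or counted RNA molecules, at steady state and 1394605 after GM-CSF. The median was 7264 UMIs and 2574 genes a cell at steady state and 7232 UMIs and 2441 genes after GM-CSF, so depth a cell was close between the libraries. Mitochondrial transcripts took a median of 3.68% of UMIs at steady state and 5.22% after GM-CSF. A doublet caller marked 10 steady-state and 14 GM-CSF P-I cells, which stayed in the values below. Of 8 cell barcodes that occurred in both libraries, 1 belonged to a P-I cell. Levels are given as CPM, the UMIs of a gene summed over the P-I cells of a library relative to all UMIs of those cells on the usual CPM scale, and the ratio is GM-CSF over steady state. A count of 0 allows up to 2.75 CPM at steady state and 2.15 CPM after GM-CSF (3 counts).

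Both libraries carried the RNA of the markers, but at unequal levels. Ly6c2, which encodes the Ly6C antigen, stood at 886 CPM at steady state and 130 CPM after GM-CSF, a log2 ratio of -2.77. A Ly6c2 UMI was seen in 85.6% of steady-state P-I cells and in 34.2% after GM-CSF. In B cells, which should lack the gene, the shares were 9.18% and 11.4% at median depths of 2976.5 and 2741 UMIs. Csf1r was at 700 and 304 CPM (log2 -1.20) with a UMI in 97.1% and 82.9% of P-I cells and in 19.9% and 2.53% of B cells. Ccr2, the chemokine receptor of classical monocytes, was at 1052 and 710 CPM, and its ratio of 0.674 (interval 0.619 to 0.735) was under the 2-fold limit used below.

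The gates that made up P-I did not cover the same tag counts in the 2 libraries. The Ly6C tag had a lowest count of 195, a median of 899 and a highest of 3527 at steady state, against 47, 105 and 2107 after GM-CSF. The CD115 tag ran the other way, with a lowest count of 21, a median of 32 and a highest of 192 at steady state and 84, 111 and 315 after GM-CSF. The CD11c tag had medians of 4 and 107 and the MHCII tag of 11 and 171, while CD301b, the lectin that marks P-IV cells in the study, was at 10 and 14. Medians also differed in cells outside the gates. In B cells the CD11c tag was at 1 and 8, and in granulocytes the Ly6C tag was at 176 and 82 and the CD11c tag at 2 and 10. Over all cells of a library, CD115 medians were 2 and 11 and Ly6C medians 180 and 56. The part of the gates and of tag background in the RNA differences was not tested beyond the comparisons at shared lower tag bounds given with the groups below.

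**Figure D1:**
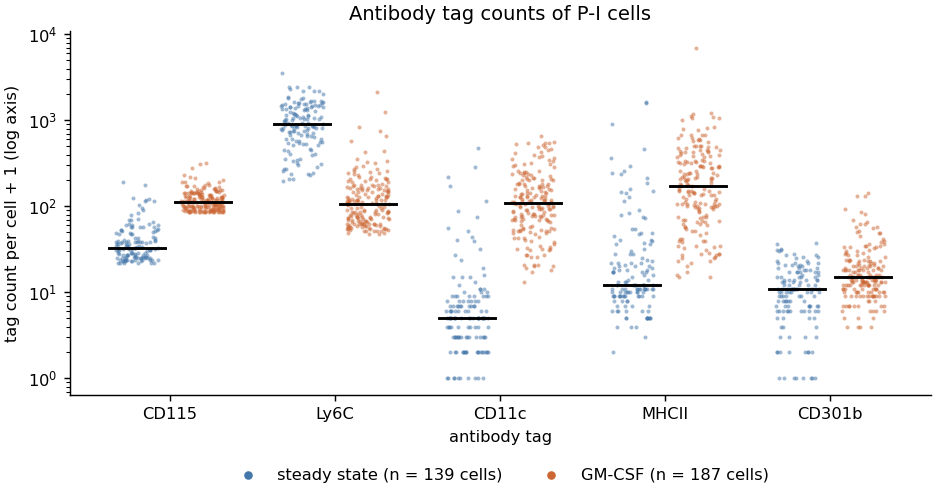
Antibody-tag counts of single P-I cells (log axis) for the 5 tags, with 139 steady-state and 187 GM-CSF cells as points and the median as a black line. The Ly6C clouds have medians of 899 and 105 and the CD115 clouds of 32 and 111, and the lowest GM-CSF CD115 count (84) lies above the steady-state median.

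Few cells lay above lower tag bounds shared by both libraries. With Ly6C at 195 or more and CD115 at 84 or more, 10 steady-state cells (72026 UMIs) and 33 GM-CSF cells (265216 UMIs) remained, and 4 of those 33 were called doublets. The tags were still not matched above these bounds, with Ly6C medians of 915.5 at steady state and 256 after GM-CSF. The CD11c medians were 8 and 81, while those of CD115 were 116 and 115. In these cells the Ly6c2 level was 264 CPM at steady state and 347 CPM after GM-CSF. That ratio of 1.29 (interval 0.796 to 2.28) rests on 19 steady-state UMIs. Csf1r was at 1152 and 264 CPM there (ratio 0.229, interval 0.164 to 0.319). The Ly6c2 ratio lay above 1 there with an interval that held 1, and the Csf1r ratio lay below 1. Both bounds select again on the protein of the gene that is read. The CD115 bound kept 10 of 139 steady-state and all 187 GM-CSF cells. Steady-state Csf1r was at 700 CPM over all P-I cells and at 1152 CPM above the bounds, so these ratios depend on the choice of cells.

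Genes of cell division and of MHC class II were among those with the highest ratios or levels after GM-CSF, and promoters of some are shown so that the shared letters can be read beside the values. Genes of mitosis are known to share the cell cycle homology region (CHR), here searched as TTTGAA on both strands, and MHC class II genes share the Y box, searched as CTGATTGG on both strands. The windows are RefSeq promoters of build GRCm38.p6, from 250 bases before to 50 after the annotated start, printed 5' to 3' along the gene. Those of Ube2c (chr2:164769679-164769978, plus strand), Cdk1 (chr10:69352863-69353162, minus strand) and Mki67 (chr7:135716330-135716629, minus strand) have the CHR letters in capitals. Those of H2-Aa (chr17:34287774-34288073, minus strand) and H2-Eb1 (chr17:34305617-34305916, plus strand) have the Y box in capitals. Spint1 (chr2:119237110-119237409, plus strand), a gene higher in GM-CSF P-I cells in G1 as well, held 0 matches to the CHR.
Ube2c: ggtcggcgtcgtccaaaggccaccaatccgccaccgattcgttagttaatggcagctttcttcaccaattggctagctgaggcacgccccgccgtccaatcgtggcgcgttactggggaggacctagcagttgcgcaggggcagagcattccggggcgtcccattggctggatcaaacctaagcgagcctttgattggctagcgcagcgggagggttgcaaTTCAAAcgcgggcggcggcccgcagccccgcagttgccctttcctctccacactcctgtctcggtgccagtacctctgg
Cdk1: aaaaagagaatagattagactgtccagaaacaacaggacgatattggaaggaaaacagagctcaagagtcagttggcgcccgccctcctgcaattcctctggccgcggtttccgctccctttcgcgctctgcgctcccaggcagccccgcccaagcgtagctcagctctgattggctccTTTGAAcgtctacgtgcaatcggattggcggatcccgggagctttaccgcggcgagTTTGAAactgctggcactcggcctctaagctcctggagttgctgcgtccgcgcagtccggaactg
Mki67: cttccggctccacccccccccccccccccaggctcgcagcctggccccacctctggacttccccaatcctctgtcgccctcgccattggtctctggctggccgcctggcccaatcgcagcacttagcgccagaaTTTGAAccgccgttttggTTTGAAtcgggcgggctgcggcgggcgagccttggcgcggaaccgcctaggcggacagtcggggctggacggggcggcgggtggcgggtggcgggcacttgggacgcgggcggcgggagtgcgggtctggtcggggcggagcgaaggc
H2-Aa: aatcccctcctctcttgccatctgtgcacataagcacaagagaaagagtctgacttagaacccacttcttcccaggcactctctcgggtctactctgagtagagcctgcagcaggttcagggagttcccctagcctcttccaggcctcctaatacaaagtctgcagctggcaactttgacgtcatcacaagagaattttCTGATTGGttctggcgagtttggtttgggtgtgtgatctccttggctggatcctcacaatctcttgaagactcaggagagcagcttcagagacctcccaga
H2-Eb1: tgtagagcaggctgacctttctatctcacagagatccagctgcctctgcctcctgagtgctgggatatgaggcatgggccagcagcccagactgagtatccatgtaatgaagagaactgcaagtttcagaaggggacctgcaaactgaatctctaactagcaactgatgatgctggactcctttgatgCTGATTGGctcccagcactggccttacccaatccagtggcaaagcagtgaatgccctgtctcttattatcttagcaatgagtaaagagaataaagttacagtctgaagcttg
Spint1: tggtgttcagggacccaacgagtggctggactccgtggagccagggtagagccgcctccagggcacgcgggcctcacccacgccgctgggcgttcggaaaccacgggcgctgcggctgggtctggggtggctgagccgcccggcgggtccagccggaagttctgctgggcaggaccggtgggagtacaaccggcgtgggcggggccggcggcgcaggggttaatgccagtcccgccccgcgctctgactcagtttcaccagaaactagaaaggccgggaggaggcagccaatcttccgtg

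The CHR match began 29 bases before the start in Ube2c, where it lies on the reverse strand, 71 and 15 bases before it in Cdk1, and 116 and 98 bases before it in Mki67. The Y box began 51 bases before the start of H2-Aa and 62 bases before that of H2-Eb1. The letters TTTGAA occurred in 28 of the 36 mitosis-list genes with a promoter in the table (77.8%), in 4 of 30 DNA replication genes (13.3%), and in 20.2% of all 27025 promoters of the same length. CTGATTGG occurred in 4 of 13 MHC class II list genes (30.8%), in 9 of 30 DNA replication genes (30.0%), in 9 of 36 mitosis genes (25%) and in 4.70% of all promoters, so it was not particular to the class II list. Among genes at least 2-fold higher, 23.1% of 225 promoters held TTTGAA, against 13.4% of 127 for the genes higher in G1 cells, 17.7% of 311 for the lower genes and 14.3% of the 4519 for all P-I genes compared. The letters TTCNNNGAA, which STAT5 is known to bind, were in 8.89% of the promoters of higher genes and 12.2% of those of lower genes. The shares were 4.72% for the genes higher in G1 cells, 8.08% for all P-I genes compared and 9.55% for all promoters. These matches are descriptions of the letters and not sites of binding.

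Of 5774 genes with at least 50 UMIs over both libraries, 288 (4.99%) were at least 2-fold higher and 411 (7.12%) at least 2-fold lower in GM-CSF P-I cells. The median log2 ratio over all genes was -0.10. When the libraries were scaled so that this median was 0, the counts were 348 higher and 311 lower, so that higher genes went from 41.2% to 52.8% of those called. Of the 288 higher genes, 9 had 0 UMIs at steady state. A single cell held over 20% of the UMIs in the higher library for 7 of the higher and 10 of the lower genes. Above both tag bounds 1006 genes passed the minimum. Of those measured there, 35 of 53 higher genes and 48 of 72 lower genes were again at least 2-fold apart in the same direction. Of all 1006 genes, 9.05% were higher and 10.1% lower there. These cells are part of the P-I cells that gave the first calls, so the overlap is not independent.

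**Figure D2:**
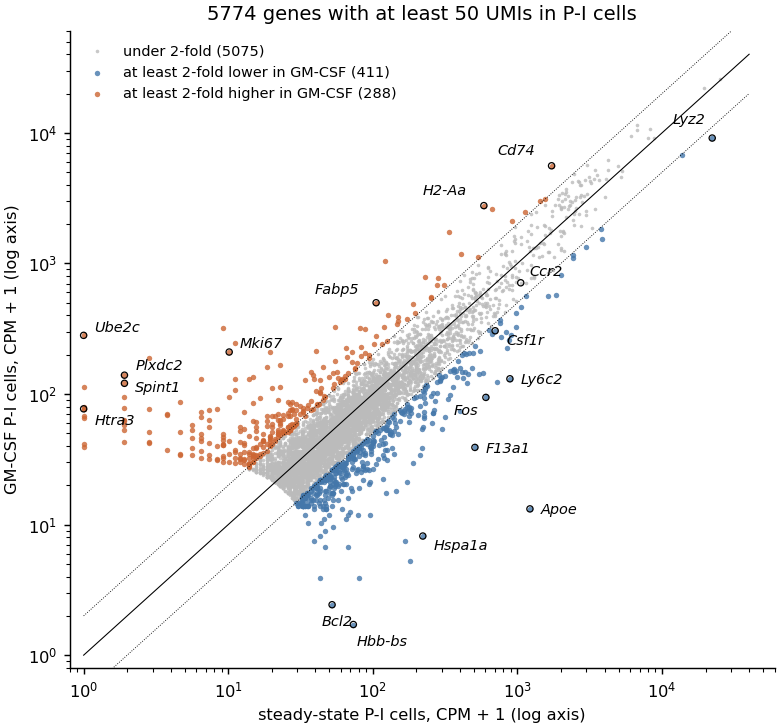
CPM + 1 of 5774 genes in P-I cells, steady state on the x axis and GM-CSF on the y axis (both log axes), with 288 genes at least 2-fold higher in orange, 411 at least 2-fold lower in blue and dotted lines at 2-fold. Ube2c, Plxdc2, Spint1 and Htra3 lie at the left edge with 0 or 1 steady-state UMIs, and Apoe and Lyz2 lie below the lower line.

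Of the 15 highest ratios all but those of Htra3, Plxdc2 and Spint1 belonged to genes of mitosis. Ube2c, the ubiquitin-conjugating enzyme of the anaphase-promoting complex, had 0 UMIs at steady state and 391 after GM-CSF, that is 0 and 280 CPM, at least 102-fold higher. A Ube2c UMI was in 33.2% of GM-CSF P-I cells, and in 0% of B cells of either library. Ccnb2, a mitotic cyclin, had 0 and 156 UMIs (at least 40.7-fold higher), and the spindle genes Nusap1 and Kif11 had 0 and 110 and 0 and 106 UMIs. Top2a, the topoisomerase that untangles replicated DNA, was at 10.1 and 247 CPM (ratio 23.5, interval 13.5 to 49.5). Mki67, the proliferation antigen Ki-67, was at 9.15 and 209 CPM (ratio 21.7, interval 12.2 to 48.0). A Mki67 UMI was in 2.16% and 27.3% of P-I cells and in 3.06% and 3.798% of B cells. At steady state the share in P-I cells lay below that in B cells, at median depths of 7264 and 2976.5 UMIs. Birc5 (survivin) had 2 and 260 UMIs, a ratio of 81.6 with an interval of 27.9 to 846. Spc24, Cenpe, Plk1 and Aspm, all of the spindle or kinetochore, had 0 steady-state UMIs and between 53 and 93 after GM-CSF.

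Summed over all 40 listed mitosis genes, the level was 271 CPM at steady state and 3090 CPM after GM-CSF (ratio 11.4, interval 10.1 to 12.9). Of these genes, 26 passed the minimum, most of them through the GM-CSF library, and 25 were at least 2-fold higher. Over all genes the higher share was 4.99%. The DNA replication list stood at 430 and 1092 CPM, and 11 of the 15 of its 38 genes that passed the minimum were higher. A gene can pass through the GM-CSF library alone, which favours higher calls in this list, as in those of mitosis and histones. Among the called genes were the ribonucleotide reductase subunit Rrm2 at 8.24 and 45.9 CPM and the replicative helicase subunit Mcm5 at 8.24 and 48.0 CPM. Of 8 measured replication-dependent histone genes, 5 were higher, led by Hist1h2ap at 12.8 and 129 CPM and Hist1h1b at 17.4 and 160 CPM, and as near-identical copies their counts are uncertain. Among cyclins and their inhibitors, Ccna2 (cyclin A2) had 1 and 87 UMIs, and Cdkn2c, an inhibitor of CDK4 and CDK6, was at 8.24 and 39.4 CPM. Ccnd1 (cyclin D1) was lower at 45.8 and 5.74 CPM, and 64.0% of its steady-state UMIs came from 1 cell. Cdk4 was at 25.6 and 52.3 CPM, just past the limit.

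These genes sat in a fraction of the P-I cells. The authors' clusters 7 and 8 held 3 of 139 steady-state P-I cells (2.16%, interval 0.447 to 6.18) and 52 of 187 GM-CSF P-I cells (27.8%, interval 21.5 to 34.8). In GM-CSF P-I cells the mitosis sum was 7803 CPM in cluster 7 and 8556 CPM in cluster 8, and 292 CPM in cluster 2, where 53 GM-CSF cells lay. By the deposited cell cycle phase, 3.597% of steady-state and 23.5% of GM-CSF P-I cells were in G2M (intervals 1.18 to 8.20 and 17.6 to 30.3). S phase was called in 25.2% and 17.1%, with overlapping intervals of 18.2 to 33.2 and 12.01 to 23.3. S and G2M together made up 28.8% (interval 21.4 to 37.1) and 40.6% (interval 33.5 to 48.0). Phase calls moved with the scoring. Scored again in scanpy with 43 S and 54 G2M genes, 7.91% and 36.4% of cells were in S or G2M. The same scoring of cells thinned to 1000 UMIs gave 33.3% and 51.9%. The deposited phases came from Seurat with fewer genes of each phase, so tool and gene set differ as well. The 5 steady-state cells called G2M had a mitosis sum of 355 CPM against 9944 CPM in the 44 GM-CSF cells with that call, so the same call covered unlike levels.

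**Figure D3:**
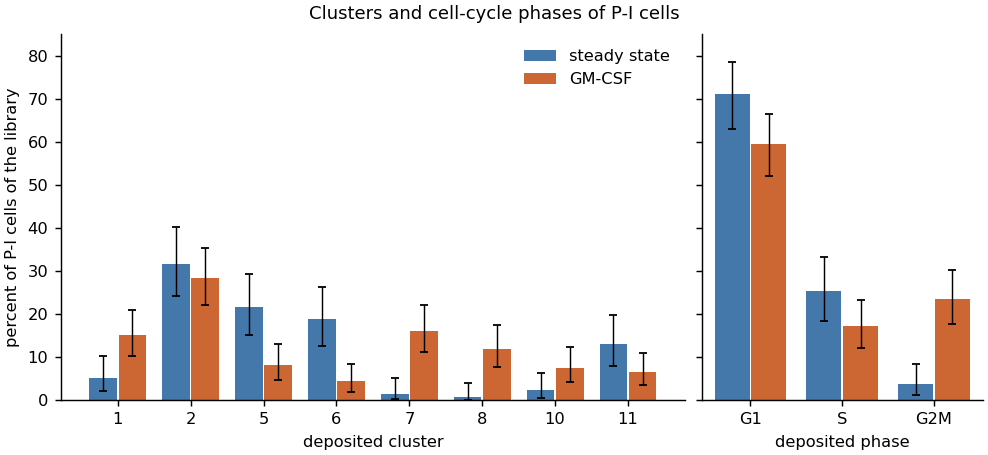
Percent of P-I cells in each of the authors' clusters and in each deposited cell cycle phase, by library, with exact 95% binomial intervals as error bars (139 steady-state and 187 GM-CSF cells). Clusters 7 and 8 together held 2.16% of steady-state and 27.8% of GM-CSF cells, and the G2M bars stand at 3.597% and 23.5%.

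The comparison was repeated in the P-I cells called G1, 99 at steady state and 111 after GM-CSF, with 798403 and 795385 UMIs. Of 4430 genes that passed the minimum, 166 (3.75%) were higher and 367 (8.28%) lower, with a median log2 ratio of -0.13. Scaling to a median of 0 gave 234 higher and 271 lower. Of the 288 genes higher over all P-I cells, 115 were also higher in G1, 32 were not, and 141 had too few UMIs there. Of the 411 lower genes, 286 were also lower, 56 were not and 69 had too few UMIs. The mitosis sum in G1 cells was 234 and 342 CPM and the DNA replication sum 260.5 and 295.5 CPM. Nusap1 and Cdk1 had 0 UMIs in G1 cells of both libraries, and with Cenpf, Tpx2 and Kif11 they lost the most log2 ratio. Seurat calls G1 by low scores on genes of this kind, so these losses follow from the choice of cells and are a description. Of the listed genes, 35 of 40 for mitosis and 23 of 38 for DNA replication are in the gene set used here to score the phases again. Ube2c stayed at 39.0 CPM in GM-CSF G1 cells against 0 at steady state.

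**Figure D4:**
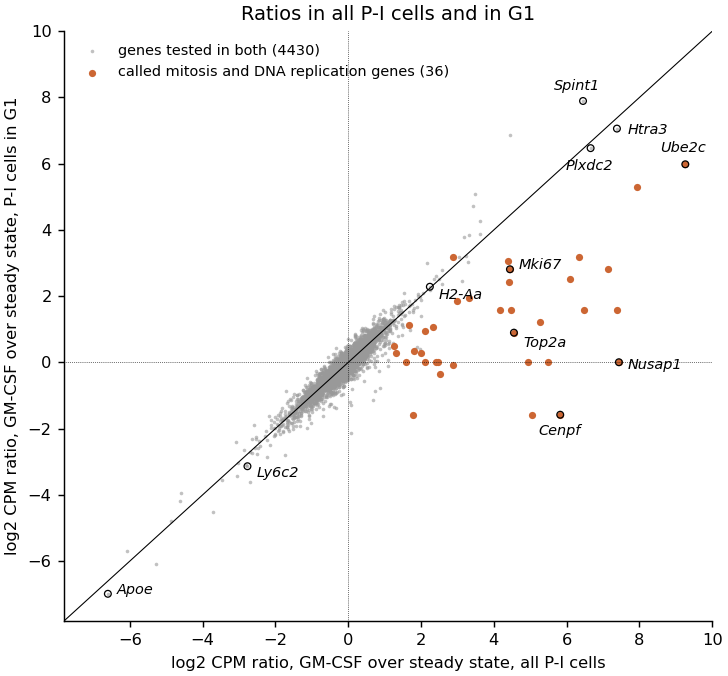
Log2 CPM ratio (GM-CSF over steady state) of each gene over all P-I cells (x axis) and over P-I cells in G1 (y axis), with the line of equality, where grey points are the 4430 genes tested in both, and orange points are the called mitosis and DNA replication genes, most of them under the minimum in G1. Apoe, Ly6c2, H2-Aa, Spint1, Plxdc2 and Htra3 lie near the line, and Nusap1 and Cenpf lie at or below 0 in G1.

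The 10 highest ratios in G1 cells, which were chosen for low cell cycle scores, began with Spint1 and Htra3. Spint1, an inhibitor of serine proteases at the cell surface, had 1 UMI at steady state and 167 after GM-CSF, that is 0.915 and 120 CPM (ratio 87.5, interval 23.2 to 5199), and 0 and 148 CPM in G1 cells. A Spint1 UMI was in 54.0% of GM-CSF P-I cells and in 2.53% of GM-CSF B cells. Plxdc2, a transmembrane receptor of the plexin domain family, was at 0.915 and 138 CPM (ratio 101, interval 26.8 to 6003), with a UMI in 0.719% and 55.6% of P-I cells and in 1.27% of GM-CSF B cells. Htra3, a secreted serine protease, had 0 and 106 UMIs (at least 27.7-fold higher) and was at 0 and 83.0 CPM in G1 cells. Above both tag bounds Spint1 was at 0 and 71.6 CPM and Plxdc2 at 0 and 121 CPM, but with 72026 steady-state UMIs a count of 0 there allows up to 41.65 CPM. The intervals of these ratios began at 1.27 and 2.22. Eva1b was at 6.41 and 73.9 CPM, and Cd1d1, which presents lipid antigens to natural killer T cells, at 5.49 and 72.4 CPM. The adaptor Dok2 was at 10.1 and 105 CPM, and Gatm, the enzyme that starts creatine synthesis, at 6.41 and 62.4 CPM. The neutrophil granule genes Ngp, Camp and Ltf also ranked among the 10 highest in G1, but 1 cell held 62.0%, 67.4% and 81.4% of their GM-CSF UMIs.

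Genes of MHC class II presentation were higher as a group. Of 12 measured members 8 were at least 2-fold higher and 0 lower, with a median log2 ratio of 1.69. In G1 cells 7 of 11 were higher with a median of 1.83. Over all genes the higher share was 4.99% in P-I cells and 3.75% in those in G1. H2-Aa, the alpha chain of I-A, was at 585 CPM (interval 540 to 632) at steady state and 2771 CPM (interval 2684 to 2859) after GM-CSF. An H2-Aa UMI was in 35.3% of steady-state and 95.2% of GM-CSF P-I cells, against 3.53% and 9.16% of granulocytes, whose median depths were 1770 and 1229 UMIs. Its partner H2-Ab1 was at 666 and 2596 CPM, H2-Eb1 at 336 and 1736 CPM, and Cd74, the invariant chain, at 1721 and 5594 CPM. Ciita, the transactivator of these genes, was at 32.9 and 127 CPM, and the peptide-loading genes H2-DMa and H2-DMb1 were at 279 and 774 and at 126 and 405 CPM. The processing protease Ctss was at 1795 and 1116 CPM, and Ifi30, a lysosomal thiol reductase, had a log2 ratio of 0.84. Within cluster 2, which held 44 and 53 cells, H2-Aa was at 735 and 2939 CPM, and within cluster 6 at 5.27 and 661 CPM.

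The MHC class II difference depended on which steady-state cells were compared. At a Ly6C tag of 195 or more alone (139 and 33 cells) the list median was 1.23 and the H2-Aa ratio 2.82 (interval 2.49 to 3.19). With the CD115 bound of 84 as well (10 and 33 cells) the list median was -0.38, H2-Aa was at 2430 and 1648 CPM and Cd74 at 5276 and 3891 CPM. The 10 steady-state cells there had a median MHCII tag of 63, against 11 in all 139. Their class II sums ran from 3290 to 29070 CPM a cell, and those of the 33 GM-CSF cells from 1252 to 40640 CPM. In granulocytes 5 of 7 measurable members of the list were higher, with a median of 1.15 against 0.108 over all genes there, and in B cells, which express these genes themselves, 1 of 12 was. Of all genes, 7.29% were higher in granulocytes and 1.41% in B cells.

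Markers of classical monocytes were lower. Of 18 measured genes on the list, 10 were at least 2-fold lower and 0 higher, where 7.12% and 4.99% of all genes were. The median log2 ratio was -1.11, and the summed level was 41180 and 21090 CPM. F13a1, the clotting factor XIII subunit, was at 507 and 38.004 CPM. Lyz2, the lysozyme gene, was at 22224 and 9124 CPM, Chil3 at 1843 and 575 CPM, and the transcription factor Cebpb at 1636 and 560 CPM. Other members were close between libraries, such as Plac8 with a log2 ratio of -0.18, S100a6 with -0.15 and Vcan with 0.12. In cells at both tag bounds the list median was -0.22, F13a1 was at 319 and 132 CPM, Lyz2 at 16860 and 11120 CPM, and Fn1 (fibronectin) at 500 and 833 CPM in place of 1143 and 561 CPM over all P-I cells. The same list was also lower in B cells, which should not express it, with 14 of 16 measurable genes called and a median of -2.30. Of all genes there, 13.8% were lower, with a median of -0.257. Lyz2 in B cells went from 3473 to 406 CPM. In granulocytes the list median was 0.139, against 0.108 over all genes there. The part of free RNA in the P-I difference was not tested.

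Markers of non-classical monocytes were lower too. Of 15 measured genes 13 were lower and 1 higher, where 7.12% and 4.99% of all genes were. The median log2 ratio was -1.48, and the sum was 4679 and 1537 CPM. Nr4a1 was at 400 and 73.1 CPM, the fractalkine receptor Cx3cr1 at 421 and 133 CPM, Itgal (the LFA-1 alpha chain) at 903 and 283 CPM and Pou2f2 at 725 and 122 CPM. The exception was Bcl2a1d at 60.4 and 128 CPM, whose reads may be shared with its near-identical relatives. At both tag bounds the ratio of Itgal was 0.239 and that of Cx3cr1 0.242, with 79 and 40 GM-CSF UMIs. In B cells 11 of 14 measurable genes of the list were lower as well, with a median of -3.26. Of all genes there, 13.8% were lower, with a median of -0.257.

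Of the receptor for GM-CSF, Csf2ra was at 268 and 143 CPM and Csf2rb at 196 and 234 CPM, both under 2-fold, and Csf2rb2, which encodes a beta chain used for IL-3, was at 20.1 and 42.3 CPM with a ratio of 2.07 (interval 1.27 to 3.6). The STAT5 feedback genes Cish and Socs2 had 0 UMIs at steady state and 3 and 2 UMIs after GM-CSF, at or below what a count of 0 allows. Of 16 measured genes of this list 7 were lower, against 7.12% of all genes, with a median log2 ratio of -0.85. They include the MAP kinase phosphatase Dusp6 at 224 and 64.5 CPM, the kinase gene Pim1 at 424 and 205 CPM and Socs3 at 74.1 and 36.6 CPM. Bcl2, the anti-apoptotic family founder, had 56 and 2 UMIs, a ratio of 0.0347 (interval 0.00331 to 0.106), while B cells held it at 161 and 203 CPM. Its relatives Bcl2a1a, Bcl2a1b and Bcl2a1d were higher, at 36.6 and 148, 92.4 and 187, and 60.4 and 128 CPM, as was the pro-apoptotic Bcl2l11 (Bim) at 42.1 and 100 CPM. At both tag bounds the ratio of Bcl2a1b was 0.461 (interval 0.265 to 0.839) and that of Bcl2a1d 0.453 (interval 0.238 to 0.911). That of Bcl2l11 was 0.815 (interval 0.330 to 2.63). These ratios lay on the lower side, but with 10 steady-state cells and intervals for counting error only, a turn in direction is not shown.

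Among transcription factors of monocytes and dendritic cells, 2 of 30 measured were higher and 9 lower, where 4.99% and 7.12% of all genes were, so the share of higher members was near the background. Batf3 was at 52.2 and 143 CPM and Id2 at 102 and 242 CPM, both factors of conventional dendritic cell development, and both were also higher in G1. Klf2, a factor of leukocyte quiescence and trafficking, was at 763 and 274 CPM. Irf4 was at 19.2 and 25.8 CPM (ratio 1.33, interval 0.763 to 2.42), Irf8 at 390 and 293 CPM and Spi1 (PU.1) had a log2 ratio of -0.27. Of the defining genes of dendritic cells, Xcr1 and Esam had 0 UMIs in both libraries, Clec9a 2 and 1, Clec4a4 2 and 0, and Zbtb46 3 and 11. Flt3, the receptor for FLT3 ligand, had 37 and 3 UMIs. Of 14 genes on the dendritic cell list 1 passed the minimum, the fatty acid receptor Ffar2 at 7.32 and 76.0 CPM, and the list summed to 75.05 and 100.4 CPM.

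Genes that the study assigned to P-IV cells, the GM-CSF-induced dendritic cells it describes, were mostly higher, but the study picked that list on cells of these libraries, so it is no independent evidence of direction. Of 23 measured genes 14 were higher and 3 lower, with a median log2 ratio of 1.10, and in G1 5 of 13 were higher and 2 lower. The shares over all genes were 4.99% and 7.12%, and 3.75% and 8.28% in G1. Itgax, which encodes CD11c, was at 43.9 and 159 CPM, the metallothionein Mt1 at 4.58 and 56.6 CPM, and Cd24a at 21.05 and 88.9 CPM. The 3 lower members were Tmem176a, Tmem176b and Cd209a, the last at 71.4 and 32.3 CPM with 21.8% of its steady-state and 37.8% of its GM-CSF UMIs in 1 cell. Mgl2, which encodes CD301b, had 0 and 35 UMIs, and 10.7% of GM-CSF P-I cells had one, against 5.06% of GM-CSF B cells. Of the alternative activation list, 2 of 6 measured were higher and 3 lower, with Chil3 and the transglutaminase Tgm2 (42.1 and 2.87 CPM) among the lower and Ear2 at 149 and 361 CPM.

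Lipid genes moved in both directions. Apoe, the apolipoprotein that carries cholesterol out of macrophages, was the lowest of all genes, at 1219 CPM (interval 1154 to 1286) and 12.2 CPM (interval 7.10 to 19.5), which is 97.2-fold lower. An Apoe UMI was in 80.6% of steady-state and 5.88% of GM-CSF P-I cells, and in 35.7% and 48.1% of B cells, so that the GM-CSF share in P-I lay below that in B cells. In G1 cells it was at 1355 and 10.1 CPM and at both tag bounds at 805 and 15.1 CPM. In the other cells of the monocyte, macrophage and dendritic cell clusters, outside the CD115-high gates, it was at 1499 and 29.2 CPM, while in B cells it was at 790 and 1749 CPM. The scavenger receptor Msr1 was at 99.8 and 38.7 CPM and the nuclear receptor Nr1h3, the liver X receptor alpha, at 32.9 and 12.9 CPM. Fabp5, a carrier of fatty acids, was higher at 104 and 499 CPM and Lpl, lipoprotein lipase, at 39.4 and 212 CPM, each also in G1. Of 16 measured genes of cholesterol and fatty acid synthesis, 1 was higher and 1 lower (6.25% each), near the 4.99% and 7.12% of all genes.

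Type I interferon response genes were lower in P-I cells. Of 43 measured, 19 were lower and 1 higher, where 7.12% and 4.99% of all genes were in P-I cells. The median log2 ratio was -0.87, and the list summed to 15370 and 7720 CPM. Ifitm3, which blocks virus entry, was at 3858 and 1527 CPM, Ifi27l2a at 2013 and 820 CPM and Irf7 at 178 and 67.4 CPM. The higher member was Ly6a (Sca-1) at 8.24 and 43.7 CPM, a gene that B cells held at 226 and 845 CPM. Granulocytes had 14 of 37 measurable genes of this list lower with a median of -0.86, and B cells 7 of 21 with a median of -0.82. Of all genes, 3.2% were lower in granulocytes (median 0.108) and 13.8% in B cells (median -0.257).

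Immediate early and heat shock genes were lower, with 13 of 27 measured called and 0 higher. In P-I cells 7.12% of all genes were lower and 4.99% higher. Hspa1b and Hspa1a, near-identical HSP70 genes, were at 180 and 4.30 and at 221 and 7.17 CPM. Fos was at 604 and 93.2 CPM, Jun at 316 and 65.3 CPM and Dusp1 at 580 and 144 CPM. Fos, Jun and Hspa1a are known to respond to tissue dissociation. B cells showed 13 of 25 measurable genes lower, with Hspa1a at 329 and 0 CPM and Hspa1b at 438 and 0 CPM, and granulocytes 8 of 27. Of all genes, 13.8% were lower in B cells and 3.2% in granulocytes. With 1 library a condition, sample handling and treatment cannot be told apart.

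Receptors for microbes, antibodies and chemokines differed in part. For each tally here, the shares over all genes were 4.99% higher and 7.12% lower. Of 19 chemokine receptor and adhesion genes, 8 were lower and 2 higher, the latter including Itgax. Among the lower were Cxcr2, Ccr1 and Itgam (CD11b, the sorted antigen) at 362 and 154 CPM. The high-affinity IgG receptor Fcgr1 was at 117 and 21.5 CPM and Fcgr4 at 77.8 and 25.8 CPM, whereas the inhibitory receptor Fcgr2b was at 189 and 490 CPM. At both tag bounds Fcgr2b was at 430 and 381 CPM, a ratio of 0.875 (interval 0.587 to 1.37). Of 13 measured C-type lectin and uptake receptor genes, 4 were higher and 6 lower, with a median log2 ratio of -0.716. Among the lower were Clec4e (Mincle) and Clec4d, at 60.4 and 12.2 and at 51.3 and 12.9 CPM. Clec4n (Dectin-2), Clec4b1, Clec4a2 and Clec10a were higher, with Clec4n at 19.2 and 111 CPM. The Clec10a ratio was 0.9396 at the Ly6C bound and 0.321 (interval 0.0829 to 1.35) at both bounds, on 5 and 6 UMIs. Toll-like receptor and signalling genes had 4 of 16 measured lower and 1 higher. The nucleic acid sensors Tlr7 and Tlr13 were at 124 and 36.6 and at 118 and 31.5 CPM. Complement genes had 4 of 6 measured lower, with C3 at 451 and 141 CPM, although the list median was 0.35 at both tag bounds. The cytokine gene Il1b was at 298 and 53.1 CPM and Cxcl2 at 64.1 and 10.0 CPM, and the costimulatory Cd40 at 51.3 and 16.5 CPM. Among coagulation and matrix genes, 4 of 15 measured were lower and 3 higher. Lower ones included Thbs1 (thrombospondin) at 165 and 6.45 CPM and Thbd (thrombomodulin) at 45.8 and 7.89 CPM. The iron transporter Slc11a1 was at 95.2 and 20.1 CPM, and of 21 oxidative defence genes 3 were lower, including Cybb at 2403 and 1158 CPM.

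Lists of basic machinery had median log2 ratios between -0.0841 and 0.308. Their calls were not all rarer than among all genes, of which 4.99% were higher and 7.12% lower. Of ribosomal protein genes 6.17% were higher, and 12.5% of glycolysis and 7.69% of ribosome biogenesis genes were lower. Of 81 cytosolic ribosomal protein genes 5 were higher and 0 lower, with a median log2 ratio of 0.31 that was also seen in B cells (0.33) and granulocytes (0.35), and the list summed to 158100 and 198600 CPM. The 13 mitochondrial transcripts had a median of 0.29 with 0 called. Of 42 proteasome genes 0 were called (median 0.15), of 85 nuclear respiratory chain genes 2 were lower (median 0.12), and of 16 glycolysis genes 2 were lower, Ldhb and Slc16a3. Of 19 lysosomal protease genes 1 was lower, Ctsb at 972 and 418 CPM, and of 13 ribosome biogenesis genes 1, Mybbp1a.

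**Figure D5:**
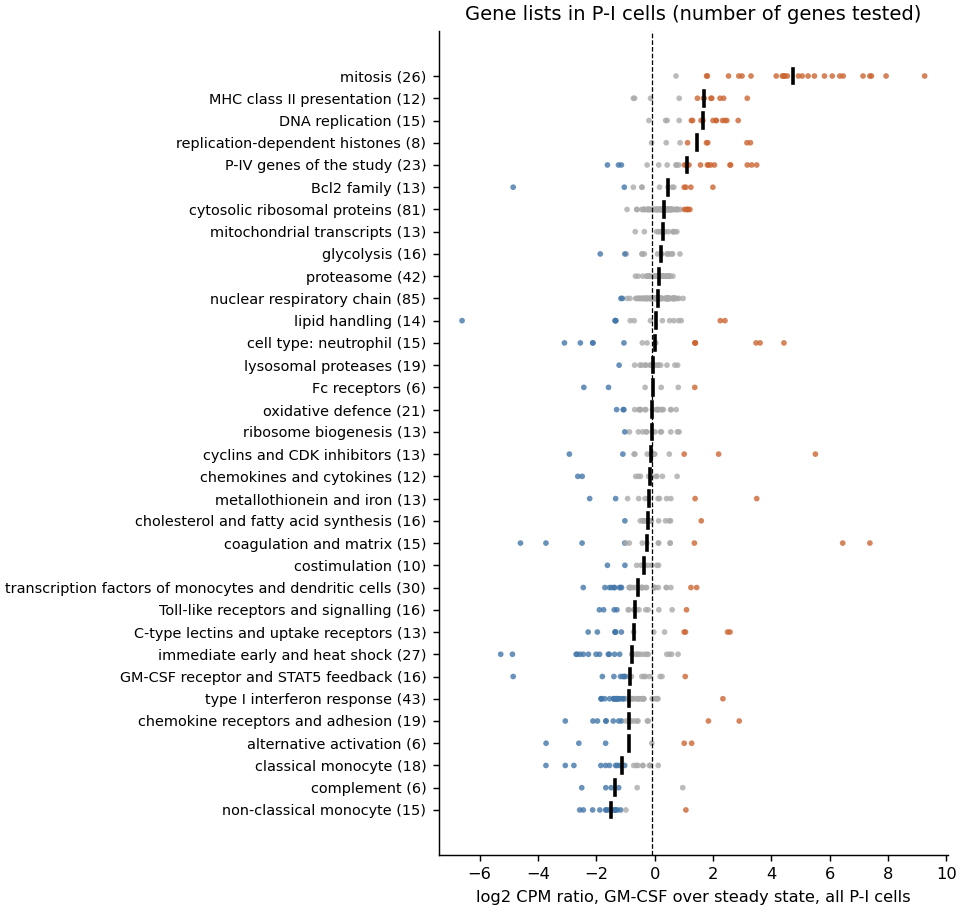
Log2 CPM ratio (GM-CSF over steady state) of the measured genes of each list with at least 6 of them, orange for at least 2-fold higher, blue for at least 2-fold lower and grey for the rest. Black bars are list medians, from 4.74 for mitosis (1.62 without clusters 7 and 8) to -1.48 for non-classical monocytes, and the dashed line is the median of all genes, -0.10.

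The remaining low genes of the ranking were of mixed kind. Gpr183, a receptor for oxysterols, was at 66.8 and 5.74 CPM, Mef2c, a transcription factor, at 189 and 28.7 CPM, and Marcksl1 at 144 and 17.2 CPM with 24.8% of its steady-state UMIs in 1 cell. Ldlrad3 was at 123 and 16.5 CPM and the unnamed locus Gm26532 at 79.6 and 2.87 CPM. Cd177, a neutrophil surface gene that monocytes also express, was at 94.3 and 10.8 CPM. Hbb-bs, a red cell haemoglobin chain, had 79 and 1 UMIs, and 96.2% of the steady-state UMIs came from 1 cell.

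Markers of other cell types in P-I were low except for those of neutrophils. The neutrophil list summed to 3891 and 4080 CPM, with 19120 and 45250 CPM in cluster 11 (18 and 12 cells), and a single-cell median of 459 CPM (0 to 77950) at steady state and 340 CPM (0 to 125100) after GM-CSF. Of its 15 measured genes 6 were higher and 5 lower, where 4.99% and 7.12% of all genes were. The directions of Lcn2 and Retnlg turned when clusters 11, 14 and 15 were left out together. B cell genes summed to 29.3 and 7.89 CPM with Cd79a and Ms4a1 at 0, T cell genes to 0.915 and 0 CPM with Cd3e and Cd3d at 0, and NK cell genes to 22.9 and 14.3 CPM. Macrophage genes summed to 243 and 284 CPM with C1qa at 0. Red cell and platelet genes summed to 144 and 1.43 CPM.

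Part of the P-I pattern was seen outside P-I. Of the 411 lower genes, 219 could be measured in B cells and 114 of them (52.1%) were also at least 2-fold lower there, where 13.8% of all genes were. Of the 288 higher genes, 87 could be measured in B cells and 10 (11.5%) were also higher, where 1.41% of all genes were. In granulocytes the balance was the other way, with 53 of 138 higher genes (38.4%) and 50 of 344 lower genes (14.5%) called in the same direction, where 7.29% and 3.20% of all genes were. In P-III, with 12 and 126 cells, the shares were 72.1% of 129 and 73.6% of 110, and in P-IV, with 7 and 313 cells, 65.4% of 269 and 68.9% of 241. The background there was 13.9% higher and 13% lower for the first of these subsets and 19.5% higher and 17.5% lower for the second. In the cells of the same clusters outside the CD115-high gates, 68.4% of the 288 and 68.1% of the 411 were called in the same direction, where 8.35% and 9.18% of all genes were. All of these comparisons set the same 2 libraries side by side, so an effect of the library is shared by them.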

How the data were processed

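CITE-seq was performed by the authors on CD11b+ splenocytes with the Chromium 3' v3 kit on a HiSeq2500, 1 library per condition. Per the labels, RNA was processed with Cell Ranger 3.0.2 against mm10 and analysed in Seurat 3.6.0. The methods state that tags were counted with CITE-seq-Count, that cells were filtered on genes and mitochondrial share, that the libraries were integrated before clustering, and that the subsets were gated on tags. The authors deposited raw UMI counts per gene and raw tag counts per cell, with cell tables whose subset, cluster and phase were used as deposited. The same tables hold the percent of mitochondrial UMIs and the S and G2M scores that the authors computed per cell in Seurat.

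Here UMIs were summed over the P-I cells of each library and expressed as CPM. Ratios carry 0.5 counts added to each sum, and their exact 95% intervals come from the binomial share of the counts. Genes with at least 50 UMIs over both libraries were compared, and at least 2-fold counts as higher or lower. No p-value was computed because cells are not replicates. Whole-library depth was 22358903 UMIs in 4827 cells at steady state (median 3371) and 35007567 in 6804 cells after GM-CSF (median 4916), and the table held 27998 genes. The intervals hold counting error only, and a count of 0 stands for up to 3 counts. Doublets were called with Scrublet in scanpy 1.11.5 (152 and 186 cells) and kept in the main values. Tools were Python 3.11.15, scipy 1.17.1, numpy 2.4.6, pandas 2.3.3 and matplotlib 3.10.9, and the ratio step was tested on simulated data. Promoter windows came from RefSeq, and motif counts cover the listed genes that matched by symbol.

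The cells and the 42 gene lists were chosen with earlier results of these data known. Genes named are the 15 highest and 15 lowest ratios over all P-I cells, the 10 highest and 10 lowest in G1, the 5 with the largest loss of log2 ratio in G1, called members of each list (the 4 with most UMIs where there are more) and 13 defining genes (Ly6c2, Csf1r, Ccr2, Csf2ra, Csf2rb, Csf2rb2, Cish, Socs2, Irf4, Irf8, H2-Aa, Mgl2 and Mki67). Further list members are named beside them to show those under 2-fold or further called ones, chosen after their values were seen. Alternatives tried were other added counts, scaling, cell weights, depth, tag bounds, doublets, clusters, phases and minimums. Alternatives with cluster 2 alone, phase S alone, clusters 7 and 8 left out and the Ly6C bound alone were added after seeing the data. Values of a few genes that the rule names are not reported here.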

Additional observations from a re-analysis of the deposited data

How the results depend on the processing

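No paired analysis was possible because each condition is 1 library and no test was run. Over all P-I cells, the 288 higher genes became 43 after thinning to 1000 UMIs (955 genes measured), 189 without cells over 5% mitochondrial, 91 at both tag bounds and 134 at the Ly6C bound alone. They became 88 in cluster 2 alone, 50 in phase S alone, 159 without clusters 7 and 8, 556 at a minimum of 20 UMIs, 76 at 200 and 1928 with none. The 411 lower genes became 91 after thinning, 102 at both bounds, 169 in cluster 2, 123 in phase S, 652 at a minimum of 20, 134 at 200 and 1905 with none. In G1, the 166 higher genes became 28 after thinning, 37 at both bounds, 83 in cluster 2, and 340, 47 and 1608 at the 3 minimums, and the 367 lower genes became 62, 42, 156, 651, 107 and 2039. Most of these settings measure fewer or more genes by construction. The share in S or G2M moved from 40.64% to 51.91% (thinned) and 57.58% (both bounds and Ly6C bound) after GM-CSF, and from 28.78% to 7.914% (scored again) and 20% (both bounds) at steady state. Cluster 2, phase S, the Ly6C bound alone and the removal of clusters 7 and 8 were chosen after seeing the data.

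At both tag bounds, with 10 steady-state cells, the ratios of 17 of 141 named genes lay on the other side of 1. The intervals of 11 of them held 1, and 6 of the 17 had at most 6 UMIs in a library. These intervals hold counting error only, and cells are not replicates, so a turn is not shown for any of the 17. The 6 whose interval did not hold 1 were Fn1, Cd74, H2-Aa, H2-Ab1, Bcl2a1b and Bcl2a1d. The ratios there were Fn1 1.65, Cd74 0.737, H2-Aa 0.677, H2-Ab1 0.620, Ifi204 1.25, Clec10a 0.321, Cxcl2 1.36, Fcgr2b 0.875, C5ar1 1.36, Hp 1.47, Gclc 2.99, Bcl2a1b 0.461, Bcl2a1d 0.453, Bcl2l11 0.815, Slpi 1.01, Ly6c2 1.29 and Csf2rb2 0.332. The MHC class II median became -0.384 and the complement median 0.354. At the Ly6C bound alone Clec10a was 0.9396. With clusters weighted equally Cenpf was 0.276, Tpx2 0.386 and Hist1h2ae 0.284. After thinning Dut was 0.970, Cdk4 0.587, Tlr1 0.754, Gclc 1.17 and Lgals9 1.03. Lcn2 and Retnlg were 0.669 and 0.441 without called doublets and 0.951 and 0.430 without clusters 11, 14 and 15. The mitosis median, 4.74 as reported, was 1.88 with clusters weighted equally, 1.62 without clusters 7 and 8 and 0.651 in cluster 2 alone, and the DNA replication median, 1.66 as reported, was 0.630, 0.472 and 0.346. The histone median was -0.377 in cluster 2 alone and -0.212 without clusters 7 and 8. The cause was not tested for these.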

Other observations

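Further genes with many UMIs, chosen after their values were seen, describe the same cells. These are single genes and no tally of a pathway. B2m, the light chain of MHC class I, was at 2976 CPM at steady state and 1344 CPM after GM-CSF, the classical heavy chain H2-D1 at 2437 and 1096 CPM and the non-classical H2-T23 at 415 and 146 CPM, each at least 2-fold lower, while H2-K1 at 1762 and 893 CPM was under that limit. In B cells B2m was at 2298 and 1573 CPM and H2-D1 at 1882 and 1562 CPM. Mpeg1, which encodes a pore-forming protein of phagocytes, was at 1064 and 465 CPM. The TNF receptor gene Tnfrsf1b was at 537 and 141 CPM, the G-CSF receptor gene Csf3r at 342 and 96.8 CPM and Il17ra at 482 and 157 CPM.

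Among higher genes, the tubulin gene Tubb5 was at 120 and 1052 CPM and in G1 cells at 101 and 557 CPM. Olfm1 was at 54.0 and 327 CPM, Naaa, a lysosomal amidase, at 250 and 543 CPM, the galectin Lgals1 at 194 and 417 CPM, the actin-severing Gsn at 119 and 323 CPM and the leukotriene B4 receptor Ltb4r1 at 87.9 and 207 CPM. The cold-inducible Rbm3 was at 230 and 789 CPM, and it was also higher in B cells (245 and 617 CPM) and granulocytes (104 and 244 CPM).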
